A study of Mus musculus with 6 samples.

Results

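Thrombomodulin (Thbd) and 8 other genes of the coagulation and plasminogen systems were described in immortalized wildtype (WT) and Alport syndrome (AS) podocytes: F3, Tfpi, Procr, Plat, Plau, Plaur, Serpine2 and F2r. The 9 genes were taken by name from the 57132 genes of the count table, and all 9 were among the 16263 genes that passed the filter on low counts. The set was chosen by the measured values of Thbd, whose CPM are much higher in AS than in WT podocytes, so that the difference between the lines is given for these 9 genes as a description, without a test. AS podocytes come from mice that lack Col4a3 (Col4a3-/-), a chain of the collagen of the glomerular basement membrane, and WT podocytes carry Col4a3+/+. RNA of 3 samples of the line IMWT and 3 samples of the line IMAS was sequenced, both lines being labelled as from adult male mice aged 8 weeks. Both lines carry the H-2kb-tsA58 transgene, a temperature-sensitive large T antigen under an interferon-inducible promoter, so that they divide at 33 °C with interferon gamma and differentiate at 37 °C. The records give 14 days of differentiation and 20 U/mL of interferon gamma, and no treatment, whereas the study's methods give a shorter differentiation and a lower dose. Each genotype is 1 cell line, so genotype and line cannot be told apart, and whether the 3 samples of a line are separate cultures is not stated, in which case p-values measure only the spread between these samples.

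Coagulation starts when tissue factor, the product of F3, meets factor VII, and it ends in thrombin, which cleaves fibrinogen and activates the receptor encoded by F2r. The pathway is held in check by the tissue factor pathway inhibitor Tfpi, and by thrombomodulin, which binds thrombin and turns it from fibrinogen to protein C, a protein that the endothelial protein C receptor Procr presents. Fibrin and matrix are removed by plasmin, which the activators encoded by Plat and Plau release from plasminogen. Plaur is the cell surface receptor of the Plau product, and Serpine2 inhibits thrombin as well as both activators. In the glomerulus thrombomodulin is best known from endothelial cells, whereas Plaur is known for its part in podocyte injury.

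Sequence upstream of the start was at hand from RefSeq (GRCm38.p6) for 6 of the 9 members, matched by symbol: Tfpi (with 2 starts), Serpine2, F2r, F3, Procr and Plaur. It was not used here for Thbd, Plat and Plau. The 250 bases before each start are shown for Tfpi and Serpine2, the members with an entry whose CPM in AS podocytes were higher without overlap, and for F2r, the member with the highest level per kilobase, which was lower. Capitals mark 4 motifs searched on both strands: the CACCC box known from KLF factors, the GC box GGGCGG known from Sp1, the AP-1 motif TGACTCA and the TATA box TATAAA. The sequences run 5′ to 3′ along the gene, and all lie on the minus strand, at chr2:84476760-84477009 and chr2:84474175-84474424 for the starts of Tfpi, at chr1:79858666-79858915 for Serpine2 and at chr13:95618467-95618716 for F2r.
Tfpi, first start: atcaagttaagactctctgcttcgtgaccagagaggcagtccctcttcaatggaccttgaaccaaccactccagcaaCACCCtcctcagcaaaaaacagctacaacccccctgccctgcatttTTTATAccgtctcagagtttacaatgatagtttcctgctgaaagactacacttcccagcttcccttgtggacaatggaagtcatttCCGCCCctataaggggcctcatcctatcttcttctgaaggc
Tfpi, other start: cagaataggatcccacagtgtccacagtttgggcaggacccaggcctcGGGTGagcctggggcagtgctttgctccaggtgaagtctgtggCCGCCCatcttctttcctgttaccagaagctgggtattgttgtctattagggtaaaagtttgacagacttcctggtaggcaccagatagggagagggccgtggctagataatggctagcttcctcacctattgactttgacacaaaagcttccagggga
Serpine2: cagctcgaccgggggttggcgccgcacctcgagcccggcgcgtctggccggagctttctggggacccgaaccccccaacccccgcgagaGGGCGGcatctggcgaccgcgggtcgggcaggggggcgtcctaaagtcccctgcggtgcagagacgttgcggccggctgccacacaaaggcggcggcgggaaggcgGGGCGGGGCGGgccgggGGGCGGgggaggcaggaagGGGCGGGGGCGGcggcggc
F2r: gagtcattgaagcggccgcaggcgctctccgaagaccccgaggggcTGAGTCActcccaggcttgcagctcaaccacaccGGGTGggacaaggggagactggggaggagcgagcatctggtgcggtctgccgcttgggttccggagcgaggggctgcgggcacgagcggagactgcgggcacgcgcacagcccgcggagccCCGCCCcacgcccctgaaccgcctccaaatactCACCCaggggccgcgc

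Both Tfpi windows held 1 CACCC box and 1 GC box, and the first also held 1 TATA box on the opposite strand. The Serpine2 window held 6 GC boxes, some of which overlap, and no other motif of the 4, at a GC content of 78.8%. The F2r window held 2 CACCC boxes, 1 GC box and 1 AP-1 motif. Of the 32851 windows of this length in RefSeq, 52.0% held a CACCC box, 32.7% a GC box, 4.46% an AP-1 motif and 12.4% a TATA box. The AP-1 motif was also found once each in the windows of F3, Procr and Plaur. These matches describe the letters and show no binding.

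The libraries held between 45417221 and 54290968 counts. CPM are counts scaled by the size of the library and its TMM factor. Col4a3 (ENSMUSG00000079465.9) was at 938, 1052 and 1272 CPM in WT and at 62.4, 61.2 and 82.9 CPM in AS samples, which goes with the labels. Synpo, a cytoskeletal gene of podocytes, was at 803 and 526 CPM (means of WT and AS), whereas the slit diaphragm gene Nphs1, which marks mature podocytes, was nearly absent, at 0.466 and 0.0407 CPM. WT replicate 1 stood apart from the other WT samples in several of the genes below and had the lowest mitochondrial share of the counts, 0.882% against 1.39 and 1.68% in the other WT samples and 1.30 to 2.02% in AS samples, whose part in these values was not tested.

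Thrombomodulin (Thbd, ENSMUSG00000074743.5, chromosome 2) was nearly silent in WT and well expressed in AS podocytes. Its level was 0.888, 0.577 and 0.585 CPM in the WT samples, from 45, 27 and 27 counts, and 78.5, 90.6 and 83.6 CPM in the AS samples, from 3536, 4657 and 4599 counts. The groups lie far apart, with no AS sample near a WT sample. The means were 0.683 ± 0.177 CPM (SD, n = 3) and 84.2 ± 6.08 CPM (SD, n = 3), a level 123-fold higher in AS podocytes. The log2 fold change was 6.93 (standard error, SE, 0.14) in edgeR's fit over all genes, number 16 from the top of the 16263 genes tested. In the WT line 16.8% of the tested genes had a lower CPM than Thbd, and in the AS line 83.8% did. Leaving out single samples gave values from 6.82 to 7.17. In bulk RNA, more cells with the transcript and more transcript per cell cannot be told apart.

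**Figure D1:**
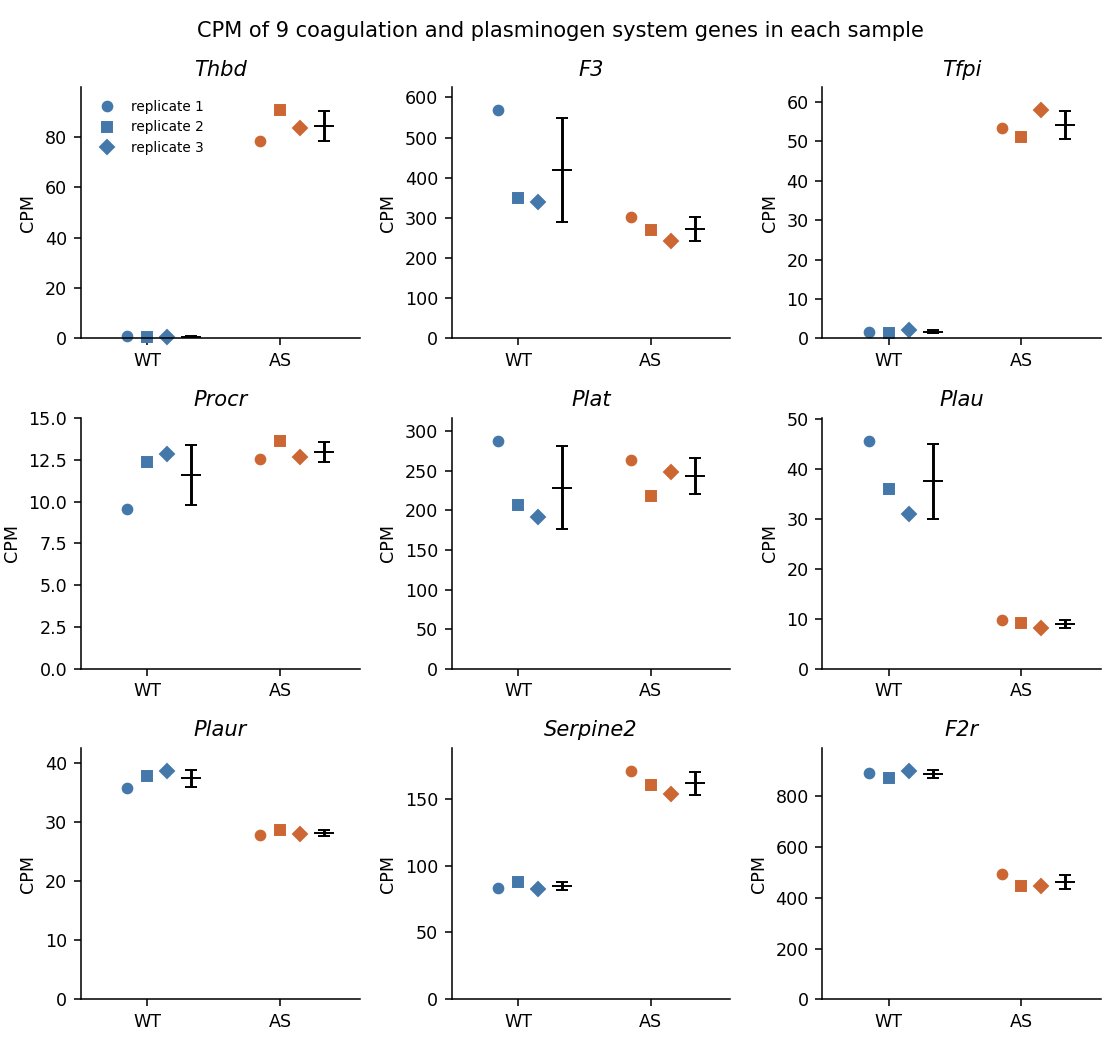
CPM (vertical axis, from 0) of the 9 genes in the 3 WT samples (blue) and the 3 AS samples (orange), with circles, squares and diamonds for replicates 1, 2 and 3 and black bars for the mean and SD of each group. Thbd and Tfpi are close to 0 in WT and at 84.2 and 54.2 CPM in AS podocytes, Plau and F2r are lower in AS podocytes, and the samples of the lines overlap for Procr and Plat.

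The partner of thrombomodulin in protein C activation, Procr (ENSMUSG00000027611.13, chromosome 2), did not go with it. It was at 9.57, 12.4 and 12.9 CPM in the WT samples and 12.5, 13.7 and 12.7 CPM in the AS samples, so that the samples of the lines overlap. The means were 11.6 ± 1.78 and 12.96 ± 0.607 CPM (n = 3 each, SD), with a log2 fold change (± SE) of 0.16 ± 0.12. The difference was within the spread between samples, and WT replicate 1 was the lowest sample. Per kilobase of exon, the level of Thbd relative to Procr had a mean of 0.0336 ± 0.0147 (SD, n = 3) among WT samples and of 3.54 ± 0.112 (SD, n = 3) among AS samples.

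Tfpi (ENSMUSG00000027082.16, chromosome 2), the inhibitor of the tissue factor pathway, was the other member with a large difference. The WT samples held 1.74, 1.37 and 2.15 CPM and the AS samples 53.5, 51.1 and 57.9 CPM. Every AS sample was far above every WT sample. The means were 1.75 ± 0.389 and 54.2 ± 3.46 CPM (n = 3 each, SD), a level 31.0-fold higher in AS podocytes, and a log2 fold change (± SE) of 4.95 ± 0.13. Tissue factor itself, F3 (ENSMUSG00000028128.14, chromosome 3), was at 569, 350.2 and 341 CPM in the WT samples and 303, 269 and 243 CPM in the AS samples. The AS samples were all below the WT samples, but WT replicate 1 stood well above the other WT samples. The means were 419.8 ± 129 and 272 ± 30.4 CPM (n = 3 each, SD), and the log2 fold change, -0.63 ± 0.18 (SE), shrank to -0.35 without WT replicate 1. Per kilobase of exon, F3 exceeded Tfpi in every sample, by far more in WT than in AS samples. The ratio of F3 to Tfpi in CPM per kilobase ran from 343 to 708 over WT replicates and from 9.06 to 12.3 over AS replicates.

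Among the genes of fibrinolysis, the urokinase gene Plau (ENSMUSG00000021822.4, chromosome 14) was the most different. It was at 45.7, 36.0 and 30.9 CPM in the WT samples and at 9.79, 9.14 and 8.14 CPM in the AS samples, which do not overlap. The means were 37.5 ± 7.52 and 9.02 ± 0.831 CPM (n = 3 each, SD), a level 4.16-fold lower in AS podocytes, and a log2 fold change (± SE) of -2.06 ± 0.14. Its receptor gene Plaur (ENSMUSG00000046223.11, chromosome 7) was at 35.8, 37.8 and 38.7 CPM in the WT samples and at 27.8, 28.7 and 27.9 CPM in the AS samples. This was a small difference between groups of narrow spread, with means of 37.5 ± 1.48 and 28.2 ± 0.505 CPM (n = 3 each, SD) and a log2 fold change (± SE) of -0.41 ± 0.06. Per kilobase, the ratio of Plau to Plaur ran from 0.882 to 1.41 over WT replicates and from 0.322 to 0.389 over AS replicates, so that the receptor exceeded its ligand in all AS samples.

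The tissue activator Plat (ENSMUSG00000031538.7, chromosome 8) did not share the lower level of Plau. It was at 288, 206 and 191 CPM in the WT samples and at 264, 218 and 248 CPM in the AS samples, so that the samples of the lines overlap. The means were 228 ± 52.1 and 243 ± 23.0 CPM (n = 3 each, SD), with a log2 fold change (± SE) of 0.09 ± 0.14, within the spread between samples. It moved to 0.29 without WT replicate 1, the highest WT sample. The genes of chromosome 8 were shifted as a group, with a median log2 fold change of 0.31 relative to all chromosomes over 611 genes, and relative to them Plat was at -0.22. For the chromosomes of the other members this median was between -0.12 and -0.01. Per kilobase of exon, Plat exceeded Plau by 2.39, 2.17 and 2.35 times in the WT samples and by 10.2, 9.05 and 11.5 times in the AS samples.

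Serpine2 (ENSMUSG00000026249.11, chromosome 1), the inhibitor of thrombin and of both activators, was higher in AS podocytes. Its level was 83.2, 88.0 and 82.6 CPM in the WT samples and 171, 160.4 and 154 CPM in the AS samples. All 3 AS samples were well above the WT samples, at means of 162 ± 8.59 against 84.6 ± 2.97 CPM (n = 3 each, SD), a level 1.91-fold higher with a log2 fold change (± SE) of 0.93 ± 0.06. The thrombin receptor F2r (ENSMUSG00000048376.7, chromosome 13) had a difference of like size in the other direction. It was at 892, 872 and 900.3 CPM in the WT samples and at 494, 448 and 447 CPM in the AS samples, and the WT samples varied least of all members. The means were 888 ± 14.6 and 463 ± 26.6 CPM (n = 3 each, SD), with a level in AS podocytes 0.521 times that in WT podocytes and a log2 fold change (± SE) of -0.94 ± 0.06. Per kilobase, F2r exceeded Thbd, the other membrane protein that binds thrombin, by 1121 to 1717 times in WT and by 5.52 to 7.02 times in AS samples.

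**Figure D2:**
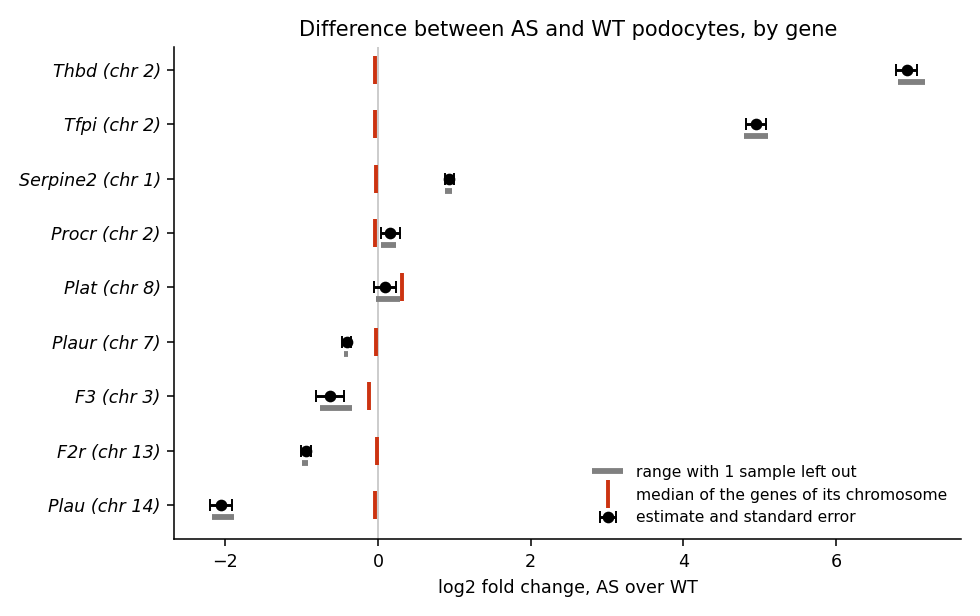
Log2 fold change of AS over WT (horizontal axis) for the 9 genes, with the estimate and its SE (black), the range over the 6 fits with 1 sample left out (grey) and the median of all genes of the same chromosome (red). Thbd, Tfpi and Serpine2 lie above 0, Plau, F2r, F3 and Plaur below 0, and the leave-one-out range of Plat crosses 0.

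For 7 of the 9 members the CPM of the lines did not overlap, with 3 (Thbd, Tfpi and Serpine2) higher and 4 (F3, Plau, Plaur and F2r) lower in AS podocytes. Among all genes tested, 52.3% did not overlap, and 40.1% had an adjusted p under 0.05 (edgeR), 20.4% higher and 19.6% lower. Since the set was proposed with this contrast in view, nothing is read from its counts. The median log2 fold change of the members was 0.09, against 0.01 over all genes tested, and the median of its absolute value was 0.93 against 0.29. The 3 members on chromosome 2, Thbd, Tfpi and Procr, had log2 fold changes of 6.93, 4.95 and 0.16, where the genes of that chromosome had a median of -0.03 relative to all chromosomes.

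Levels of different genes were compared per kilobase of merged exons (GENCODE M21, all annotated transcripts of a gene), which is approximate since the transcripts in use are not known from counts per gene. In WT podocytes the order was F2r, F3, Plat, Plau, Plaur, Serpine2, Procr, Tfpi and Thbd, from 266 to 0.184 CPM per kilobase. Plau and Plaur overlapped between samples, at 15.8 ± 3.18 and 14.3 ± 0.567 CPM per kilobase (SD, n = 3 each), and no other neighbours in this order did. In AS podocytes the order was F2r, F3, Plat, Thbd, Serpine2, Plaur, Tfpi, Procr and Plau, from 139 to 3.81 CPM per kilobase, and no neighbours overlapped, although Plaur (10.6 to 10.98) and Tfpi (9.36 to 10.6) came close. The first 3 places were the same in both lines. Thbd moved from the last place to place 4, at 22.6 ± 1.63 CPM per kilobase (SD, n = 3), and Plau from place 4 to the last.

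**Figure D3:**
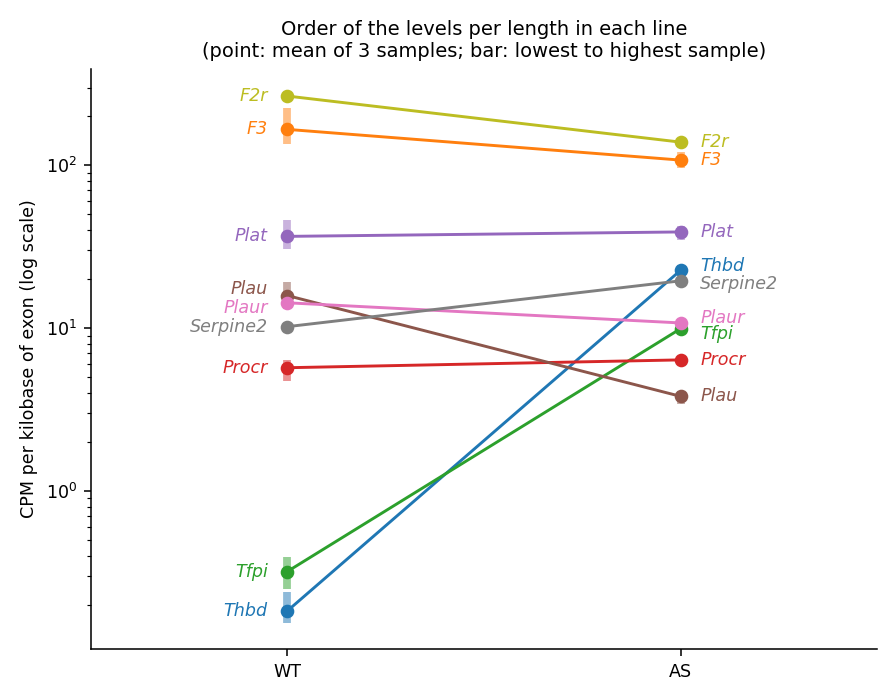
Level of the 9 genes in CPM per kilobase of exon (vertical axis, log scale) in WT and AS podocytes, with a point for the mean of 3 samples, a bar from the lowest to the highest sample and a line joining the same gene. F2r, F3 and Plat lead in both lines, Thbd and Tfpi start at 0.184 and 0.320 in WT, and Plau ends last in AS podocytes.

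The further genes of these systems were tested with edgeR's quasi-likelihood test over all genes, in 6 lists that hold 78 genes without the members. Of the 48 that passed the filter on low counts, 16 rose and 13 fell in AS podocytes, where 20.4% and 19.6% of all genes tested did so. The lines did not overlap for 36 of the 48, where 52.3% of all genes did not. The median log2 fold change was 0.115 over the 48 genes, against 0.0061 over all genes tested. By list it was -0.745 in the inhibitors, 0.086 in the receptors related to F2r and G proteins, and 0.207 in the plasminogen system. It was 1.63 in the lectin relatives of Thbd, where only 2 genes were tested, and 0.195 in the factors acting on the promoter of Thbd. Several liver-made proteins of these systems were not detected or barely detected. F7, F9, F11, F13b, Proz, Cpb2 and Vtn had 0 counts in every sample, which allows up to 0.0102 CPM (3 counts over all libraries, covering counting error only), F2 had 1 count in all, F10 had 3 and plasminogen (Plg) had 2. The substrates of F3 and of the activators were therefore not detectable or barely detectable as RNA at this depth.

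Of the 22 coagulation factors and their processing genes, 9 were tested. Of these, 5 fell and 0 rose in edgeR, where 19.6% and 20.4% of all genes tested did so. The number that rose was also 0 in DESeq2 and in limma-voom, and with each tool at an unadjusted p under 0.05. The number that fell was 3 without WT replicate 2, and likewise with a minimum mean CPM of 1. The median log2 fold change of the 9 was -0.47, against 0.01 over all genes tested, also with Fgb at its bound. Mcfd2, which with Lman1 carries factors V and VIII out of the endoplasmic reticulum, fell by 0.47 on the log2 scale (edgeR, adjusted p = 0.00108), from 77.9 ± 7.56 to 56.4 ± 1.92 CPM (n = 3 each, SD). F8, which encodes factor VIII, fell from 9.48 ± 0.924 to 6.26 ± 0.203 CPM (n = 3 each, SD, edgeR, adjusted p = 0.00304). F5 was at 0.690, 2.56 and 1.32 CPM in the WT samples and 0.0222, 0.486 and 0.0909 CPM in the AS samples, or -2.89 ± 0.76 (SE) as log2 fold change (edgeR, adjusted p = 0.0139) from few counts in widely spread samples. It lost the threshold without WT replicate 2 or AS replicate 3, and was at -4.63 without AS replicate 2. The fibrinogen chain Fgb had 0.527 ± 0.143 CPM (SD, n = 3) among WT samples against 0 counts in all 3 AS samples. This is a fall of at least 26.6-fold when 3 counts are assumed for the group as a whole (edgeR, adjusted p = 0.000604). Fgb passed the filter on low counts only through the WT samples, so a fall was the only call open to it. F5 likewise passed the filter by its WT samples. Both are among the 5 genes that fell, so they add no support to that count.

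Of 10 further coagulation inhibitors, 5 were tested. Of these, 4 fell and 0 rose by any of the 3 tools, also at an unadjusted p under 0.05. Of all genes tested, 19.6% fell and 20.4% rose in edgeR at the adjusted threshold. The tested inhibitor that did not pass, Serpinc1 (antithrombin), was at 0.194 ± 0.0766 in WT and at 0.330 ± 0.198 CPM in AS samples (n = 3 each, SD, edgeR, adjusted p = 0.311). Its exons share 2942 bases with Zbtb37 on the opposite strand, so these few counts could hold Zbtb37 reads. Serpina10, the inhibitor of factor X that uses protein Z, fell from 30.6 ± 0.747 to 10.9 ± 1.29 CPM (n = 3 each, SD), or -1.48 ± 0.09 (SE) as log2 fold change (edgeR, adjusted p = 3.09e-06). The phospholipid-binding Anxa5 fell from 868 ± 113 to 518 ± 23.7 CPM (n = 3 each, SD, edgeR, adjusted p = 0.000258). Pros1, which encodes protein S, the cofactor of activated protein C and of Tfpi, was at 499.9, 367 and 361 CPM in the WT samples and 254, 219 and 247 CPM in the AS samples. All AS samples were below the WT samples, and the log2 fold change was -0.77 ± 0.12 (SE; edgeR, adjusted p = 0.000949). Hs3st1, whose enzyme makes the antithrombin-binding site of heparan sulfate, fell by 0.47 on the log2 scale (edgeR, adjusted p = 0.00397). Tfpi2, the paralog of Tfpi, had 0 counts in WT and 2 counts in AS samples, so the difference seen in Tfpi had no detectable counterpart there.

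Of the 12 receptors related to F2r, G proteins and regulators of their signalling, 10 were tested. Of these, 2 rose and 3 fell, where 20.4% and 19.6% of all genes tested did so. Not tested were F2rl2 and F2rl3, with 19 and 31 counts over the WT samples and 0 and 30 counts over the AS samples. The number that rose was 1 with DESeq2 or without AS replicate 1 or AS replicate 3, and 0 without WT replicate 2 or WT replicate 3. F2rl1, a receptor related to F2r, was at 37.6, 36.8 and 42.3 CPM in the WT samples and 30.0, 28.7 and 21.6 CPM in the AS samples. It fell as F2r was lower, at -0.54 ± 0.12 (SE) as log2 fold change (edgeR, adjusted p = 0.00563). Arrb1, which encodes a beta-arrestin, fell by 0.33 on the log2 scale (edgeR, adjusted p = 0.00549). Arhgef11, a guanine nucleotide exchange factor downstream of such receptors, fell by 0.25 (edgeR, adjusted p = 0.0192), and the G protein genes Gnaq and Gna13 rose by 0.21 (edgeR, adjusted p = 0.0260) and 0.19 (edgeR, adjusted p = 0.0367) on the same scale. These 3 changes were small, and each lost the threshold in at least 2 of the fits with 1 sample left out. Relative to the genes of their chromosomes, Gnaq was at 0.04, Gna13 at 0.23 and Arhgef11 at -0.13. The exons of Arhgef11 and Gna13 overlap a gene on the opposite strand, so their counts could hold reads of that gene. The same holds for F5, Sp3, Anxa2, Col4a3, Serpinc1, Nphs1, Plg and Csf1r.

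In the list of the plasminogen system 11 of 19 genes were tested and 5 rose, where 20.4% of all genes tested did so in edgeR. In this list 0 fell by any of the 3 tools, also at an unadjusted p under 0.05, where 19.6% of all genes tested fell in edgeR. The number that fell was 1 with the replicate block, with unfiltered genes or without WT replicate 2. The genes that rose encode receptors for uptake and a protease. Mrc2, a collagen receptor that binds the complex of urokinase and its receptor, rose from 15.3 ± 2.40 to 52.2 ± 2.98 CPM (n = 3 each, SD), or 1.77 ± 0.11 (SE) as log2 fold change (edgeR, adjusted p = 2.34e-06). Igf2r, which binds plasminogen and Plaur besides its growth factor ligand, rose 2.03-fold, from 106 ± 14.0 to 216 ± 28.2 CPM (n = 3 each, SD, edgeR, adjusted p = 0.000115). Lrp1, which takes up complexes of activators with their inhibitors as well as Tfpi, was at 1824, 1579 and 1748 CPM in the WT samples and 3324, 2063 and 3089.7 CPM in the AS samples. AS replicate 2 was closest to the WT samples, and the log2 fold change was 0.72 ± 0.16 (SE; edgeR, adjusted p = 0.00519), or 0.41 relative to the genes of chromosome 10, which were shifted by 0.31. Its relative Vldlr rose by 0.37 on the log2 scale (edgeR, adjusted p = 0.00471), or 0.20 relative to chromosome 19, and the membrane protease Hpn rose from 0.989 ± 0.231 to 2.07 ± 0.455 CPM (n = 3 each, SD, edgeR, adjusted p = 0.0114).

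The plasminogen-binding pair Anxa2 and S100a10 was at 512 and 553.5 CPM and at 169.8 and 175 CPM in WT and AS podocytes, with adjusted p = 0.174 and adjusted p = 0.630 (edgeR).

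**Figure D4:**
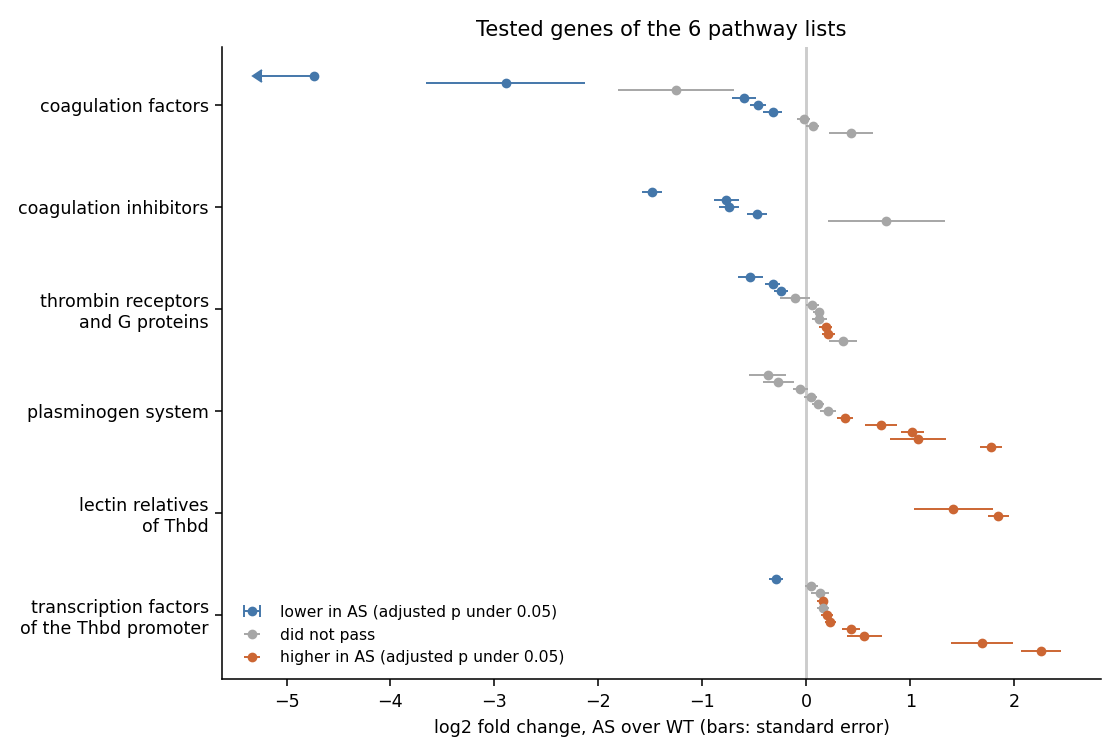
Log2 fold change of AS over WT (horizontal axis) for the 48 tested genes of the 6 lists, which leave out the 9 members, with bars for the SE and colour for genes that rose (orange), fell (blue) or did not pass (grey) at an adjusted p under 0.05. The arrow marks Fgb, drawn at its bound since it had 0 counts in AS podocytes. Called genes of the coagulation factors and inhibitors lie below 0, and those of the plasminogen system and the lectin relatives of Thbd above 0.

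Thrombomodulin belongs to a small family of membrane proteins with a C-type lectin domain. Its relative Cd248, known from stromal and perivascular cells, rose from 7.57 ± 0.651 to 27.2 ± 2.27 CPM (n = 3 each, SD), or 1.84 ± 0.10 (SE) as log2 fold change (edgeR, adjusted p = 1.16e-06). Cd93, known from endothelial cells, was at 0.237, 0.491 and 0.347 CPM in the WT samples and 1.15, 1.01 and 0.709 CPM in the AS samples, a low level in both lines with no overlap (log2 fold change 1.41, SE 0.38, edgeR, adjusted p = 0.0149). It lost the threshold without AS replicate 1. Clec14a had 5 counts over all 6 samples. Thus 2 of 3 relatives rose, where 20.4% of all genes tested did so, and the other was barely detected. With only 2 relatives tested, and Cd93 being the gene next to Thbd, nothing is read from this count.

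Of 12 transcription factors held to act on the Thbd promoter in other cells, 11 were tested. Of these, 7 rose and 1 fell, where 20.4% and 19.6% of all genes tested did so. The median absolute log2 fold change was 0.231 in this list, against 0.285 over all genes tested. The number that rose was 4 when AS replicate 1, WT replicate 2 or WT replicate 3 was left out. Klf2, which switches on Thbd in endothelial cells, was at 1.20, 1.69 and 1.28 CPM in the WT samples and 6.24, 7.76 and 5.96 CPM in the AS samples, or 2.26 ± 0.19 (SE) as log2 fold change (edgeR, adjusted p = 2.05e-05), or 1.95 relative to the genes of chromosome 8. Klf4, of the same family, was at 66.1, 42.4 and 40.8 CPM in the WT samples and 82.8, 70.4 and 66.5 CPM in the AS samples, where WT replicate 1 again stood above the other WT samples. Its log2 fold change was 0.56 (SE 0.17, edgeR, adjusted p = 0.0264), which passed in only 2 of the 6 fits that left out a sample. The retinoic acid receptor Rarb rose from 1.97 ± 0.876 to 6.32 ± 0.550 CPM (n = 3 each, SD, edgeR, adjusted p = 0.00172), although its exons overlap those of Top2b on the other strand and whether strand was used in counting is not stated. Sp1 and Sp3 rose by 0.43 (edgeR, adjusted p = 0.00436) and 0.23 (edgeR, adjusted p = 0.00998) on the log2 scale, where Sp1 was at 0.24 relative to its chromosome. Nfkb1 fell by 0.29 (edgeR, adjusted p = 0.00776) and was at -0.18 relative to its chromosome. Factor activity was not measured.

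The neighbours of Thbd and Tfpi in the gene order of chromosome 2 were looked up after their values had been seen, as the 3 nearest tested genes on each side. On the sides of Thbd lie Foxa2 and Cd93. Foxa2, a transcription factor, had 0 counts in WT podocytes and was at 0.730 ± 0.284 CPM (SD, n = 3) in AS podocytes. This is at least 34.9-fold higher when 3 counts are assumed for the WT group as a whole (edgeR, adjusted p = 0.000598). Foxa2 passed the filter on low counts, and so became a tested neighbour, only through the AS samples. A rise was therefore the only call open to it. The next genes, Xrn2, Kiz, Nxt1 and Gzf1, had log2 fold changes of 0.06, 0.27, -0.08 and -0.12, and none passed the threshold in edgeR. Next to Tfpi, Calcrl, a receptor subunit for vasoactive peptides, had 0.261 ± 0.165 CPM (SD, n = 3) in the WT line and 0.850 ± 0.352 CPM (SD, n = 3) in the AS line, or 1.71 ± 0.52 (SE) as log2 fold change (edgeR, adjusted p = 0.0259). Of the other 5 genes around Tfpi, only Itgav passed, at -0.33 ± 0.06 (SE) as log2 fold change (edgeR, adjusted p = 0.00154). The genes that were higher beside Thbd and Tfpi were thus at low levels, with means under 1 CPM, and the other neighbours did not rise in edgeR's test.

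**Figure D5:**
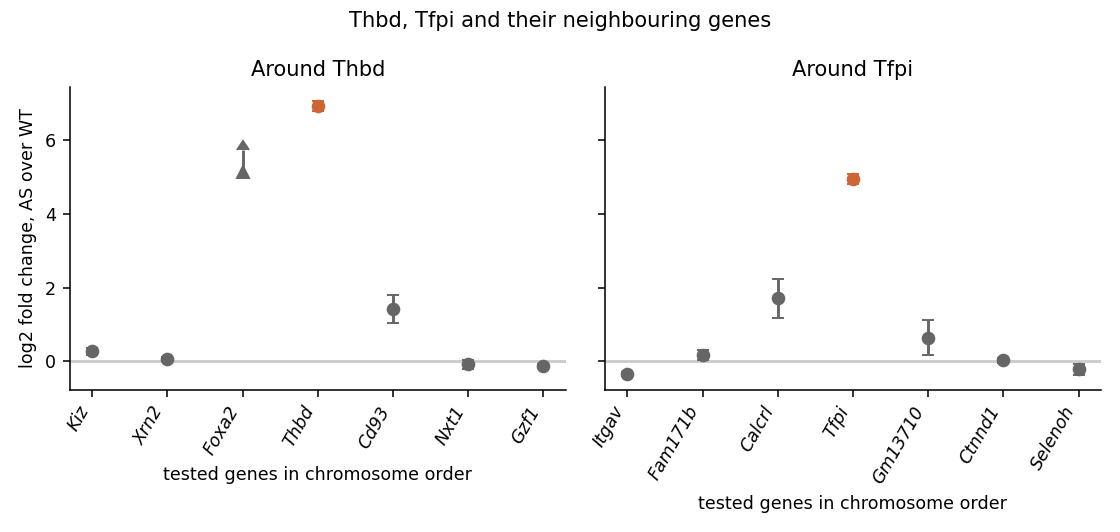
Log2 fold change of AS over WT (vertical axis, bars for the standard error) of Thbd and Tfpi (orange) and the 3 nearest tested genes on each side (grey), in chromosome order and not to scale. The triangle with an arrow is the lower bound for Foxa2, which had 0 counts in WT podocytes. Thbd lies at 6.93 and Tfpi at 4.95, and the neighbours drawn as points lie below them, whereas the bound of Foxa2 sets no upper limit.

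The genes whose pattern was nearest to that of Thbd were taken by the Euclidean distance of centred log2 CPM over the 6 samples, among the 12911 genes tested whose mean CPM reached 1. The nearest was Ptx3, a secreted pattern recognition protein (distance 0.393), with 0.111 ± 0.0264 CPM (SD, n = 3) in the WT line against 17.3 ± 1.65 CPM (SD, n = 3) in the AS line. It was followed by Gm9855 (0.520), Gvin1 (0.615), Pcdhga11 (0.762) and Gm45456 (0.855). Gm45456 had 0 counts in WT podocytes and the other 3 had means of 0.0406, 0.105 and 0.212 CPM there, against 7.80, 18.8 and 20.2 CPM in AS podocytes. Gm9855 and Gm45456 are processed pseudogenes, Gvin1 has close copies and Pcdhga11 shares exons with its cluster, so reads could be split in these 4. The 6 points are samples of 2 lines, so the distance is set by the difference between the lines and the spread within them.

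Markers of other cell types were measured because thrombomodulin is best known from endothelium. Of 10 endothelial markers 8 were under 1 CPM in both lines, Tie1 had 0 counts, Cdh5 was at 0.0431 and 0.0130 CPM and Pecam1 at 0.164 and 0.126 CPM in WT and AS podocytes. Their sum ran from 47.4 to 55.7 CPM in WT and from 40.1 to 44.8 CPM in AS samples, and 0 rose and 3 fell in edgeR's test. The 2 markers above 1 CPM, Ehd3 and Flt1, were at 48.6 and 40.6 CPM and at 3.05 and 1.43 CPM. Of 6 platelet and megakaryocyte markers, Pf4 had 0 counts, 1 rose (Itga2b, 2.10 to 4.59 CPM) and the sum ran from 1.62 to 2.78 and from 4.397 to 5.18 CPM. Markers of mesothelium, another tissue known to make thrombomodulin, summed to 12.1 to 16.6 CPM in WT and 5.31 to 9.63 CPM in AS samples. Of these 6, 1 rose (Msln, 0.152 to 0.685 CPM) and 1 fell (Krt19, 3.98 to 0.34 CPM). The macrophage list summed to 11.6 to 15.4 and 5.43 to 7.41 CPM, with Adgre1 at 0 counts and 1 of 6 fallen (Csf1r, 10.3 to 3.82 CPM). Mesangial and smooth muscle markers summed to 6230.0 to 8421 and 6545 to 7681 CPM, with 4 of 8 fallen. Most of this sum was Acta2, at means of 6701 and 6759 CPM in WT and AS samples. The 4 that fell were Cnn1 (464 to 137 CPM), Pdgfrb (253 to 116), Myh11 (29.1 to 3.96) and Cspg4 (10.2 to 0.445). Parietal epithelial markers summed to 643 to 672 and 503 to 533 CPM, with 3 of 6 fallen. Podocyte markers summed to 2773 to 3004 and 1374 to 1439 CPM, with 7 of 10 fallen and 1 risen. One of the 7 is Col4a3, the gene that AS mice lack, at means of 1087 CPM in WT and 68.8 CPM in AS samples. Of all genes tested, 20.4% rose and 19.6% fell. The part of the marker genes in the differences of the coagulation genes was not tested.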

How the data were processed

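The values deposited by the authors are counts per gene, as whole numbers and without normalization, of 3 WT and 3 AS libraries (mRNA, 15 PCR cycles). The submitters' processing notes name FastQC, Trim Galore, STAR, edgeR and the build mm39. For the counting tool, the annotation release and the strand setting, the same holds as for versions: not given in the sources used here. Without the version, 51880 of 57132 identifiers matched GENCODE M21 (GRCm38), and the others held 0.363% of the counts. M21 gave names, chromosomes, gene order and exon lengths, and no coordinates are given except those of the RefSeq windows.

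The test was that of edgeR 4.0.16 under R 4.3.3 (filterByExpr, minimum count 10 and total 15, TMM, quasi-likelihood test with the line as only term, two-sided, Benjamini-Hochberg over 16263 genes). SE values were approximated from F (the log2 fold change over its square root). The code was tested on simulated data. limma 3.58.1 (voom, the study's own method), DESeq2 1.42.0, other size factors and filters, a replicate block, leaving out each sample and removal of chromosome medians (genes with mean log2 CPM over 2) were alternatives. With 3 samples a side, an exact permutation test has 0.10 as its smallest p, so none was used.

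Members and lists were chosen with earlier results of these data known. Named were the members, Col4a3, the 5 genes nearest to Thbd, 12 pathway genes taken whatever their values (1 of them is not reported here) and, in each list, up to 4 more genes past the threshold with the smallest adjusted p. The neighbours of Thbd and Tfpi, the marker genes, Serpinc1, and genes at or near 0 counts were named after their values were seen.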

Additional observations from a re-analysis of the deposited data

How the results depend on the processing

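For the 9 members, 125 of 126 log2 fold changes under the alternatives differed from the main value by less than 1 SD of the log2 CPM between samples of a line (pooled over the lines). The exception was Plat, whose log2 fold change was -0.22 with the median of chromosome 8 removed. With 1 sample left out, the log2 fold change ran from 6.82 to 7.17 for Thbd, from 4.80 to 5.12 for Tfpi, from 0.88 to 0.97 for Serpine2, from 0.04 to 0.24 for Procr, from -0.02 to 0.29 for Plat, from -0.44 to -0.39 for Plaur, from -0.76 to -0.35 for F3, from -0.997 to -0.91 for F2r and from -2.18 to -1.89 for Plau. The pathway genes past the threshold ran from 11 to 18 higher, against 16, and from 11 to 16 lower, against 13. All genes past it ran from 2598 to 3636 higher and from 2522 to 3430 lower.

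For the named pathway genes, 17 values under alternatives with a test no longer passed and 3 newly passed; removal of chromosome medians gives values without a test. The reversed value was S100a10, at -0.0070 without WT replicate 1 (up to 0.067 with another sample left out), and it did not pass in either fit. The cause of these moves was not tested. Klf4, Gna13, Gnaq, Arhgef11 and F5 lost the threshold in 2 or more fits with 1 sample left out.

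Replicate numbers were not treated as pairs. The sample titles number them as sets 1 to 3 in both lines. Same-numbered samples deviated from their group means with correlations of 0.147, 0.0939 and 0.0527, so that not every pair was above 0.1. Differently numbered samples had correlations from -0.130 to 0.0571. These values do not settle whether the sets were pairs. With the replicate block 3636 genes were higher and 3430 lower, and the log2 fold change of Thbd was 6.93.

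Depth limits the genes near 0 counts, such as F2, F10, Plg, Tfpi2 and Clec14a, and intervals there cover counting error only. Groups of 3 are too small to test for single outlying samples.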
